A study of Mus musculus with 30 samples.

Results

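The 10 liver carboxylesterase genes described here were Ces1b, Ces1c, Ces1d, Ces1e, Ces1f, Ces1g, Ces2a, Ces2e, Ces3a and Ces3b. They were taken by name from the table of read counts, in which they account for 10 of 55335 genes, and all 10 passed the filter on low counts in every comparison. The table held 30 liver libraries, each from 1 male mouse aged 7 to 10 weeks, in 6 groups of 5. Wild-type mice, Keap1 C151S mice (C151S; homozygous for a CRISPR-Cas9 knock-in that replaces a sensor cysteine of KEAP1 by serine) and Nrf2-knockout mice (Nrf2-KO) were all albino C57BL/6J mice, the wild-type strain being B6(Cg)-Tyr c-2J/J. Each mouse was given orally, once, either 30 µmol/kg of CDDO-Me (bardoxolone methyl, a synthetic oleanane triterpenoid) or the vehicle of DMSO, Cremophor-EL and PBS, and the liver was taken 24 hours later. No Cre line or cell-type promoter is named for either mutant. Libraries held 23667068 to 42073169 reads on genes (median 33229925), and the 10 genes took 0.773% of them on average in vehicle-treated wild-type livers.

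Carboxylesterases are serine hydrolases of the endoplasmic reticulum that cleave ester, amide and thioester bonds. In liver they activate or clear ester drugs and also hydrolyse stored lipid esters. Enzymes of the CES1 class prefer substrates with a large acyl and a small alcohol group, and those of the CES2 class the reverse. The mouse genome carries many more copies than the human genome. NRF2, the protein encoded by Nfe2l2, is a transcription factor that KEAP1 holds at a low level until electrophiles such as CDDO-Me modify KEAP1, and it is known for switching on detoxication genes through antioxidant response elements. The question asked of the data was how the carboxylesterase mRNAs responded to CDDO-Me with an intact sensor, with the sensor cysteine replaced and without NRF2.

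All 10 genes lie on chromosome 8 (GRCm38) in 2 clusters. The Ces1 genes, read from the minus strand, lie together with Ces5a in 516 kb between 93020214 and 93535830, and the Ces2, Ces3 and Ces4a genes, read from the plus strand, lie in 416 kb between 104734003 and 105150109. Ces1b spans 93056728 to 93080017, Ces1c 93099015 to 93131283, Ces1d 93166068 to 93197838, Ces1e 93201218 to 93229619, Ces1f 93256236 to 93279747 and Ces1g 93302369 to 93337308. In the second cluster Ces2a spans 104734003 to 104741634, Ces2e 104926260 to 104934672, Ces3a 105048601 to 105058413 and Ces3b 105083753 to 105093929. Their coding sequences are close copies. Ces3a and Ces3b were 95.3% identical over the aligned coding bases, Ces1b and Ces1c 91.1%, Ces2a and Ces2e 83.8%. Such copies can share reads. Of all stretches of 50 bases in their transcripts, 25.6% of those of Ces3a and 26.2% of those of Ces3b also occurred in the other gene, 11.6% of those of Ces1b and 13.0% of those of Ces1c occurred in another gene (mostly each other), and 17.3% of those of Ces2a did, mostly in Gm7208. The share was between 0.9% and 3.3% for the other 5 genes. Counts of Ces3a, Ces3b, Ces1b, Ces1c and Ces2a may therefore miss reads, as the counting left out those with several matches. The study read 50 bases from both ends of each fragment, and a unique end can place its pair. These shares thus do not give the part of the reads that was lost.

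**Figure D1:**
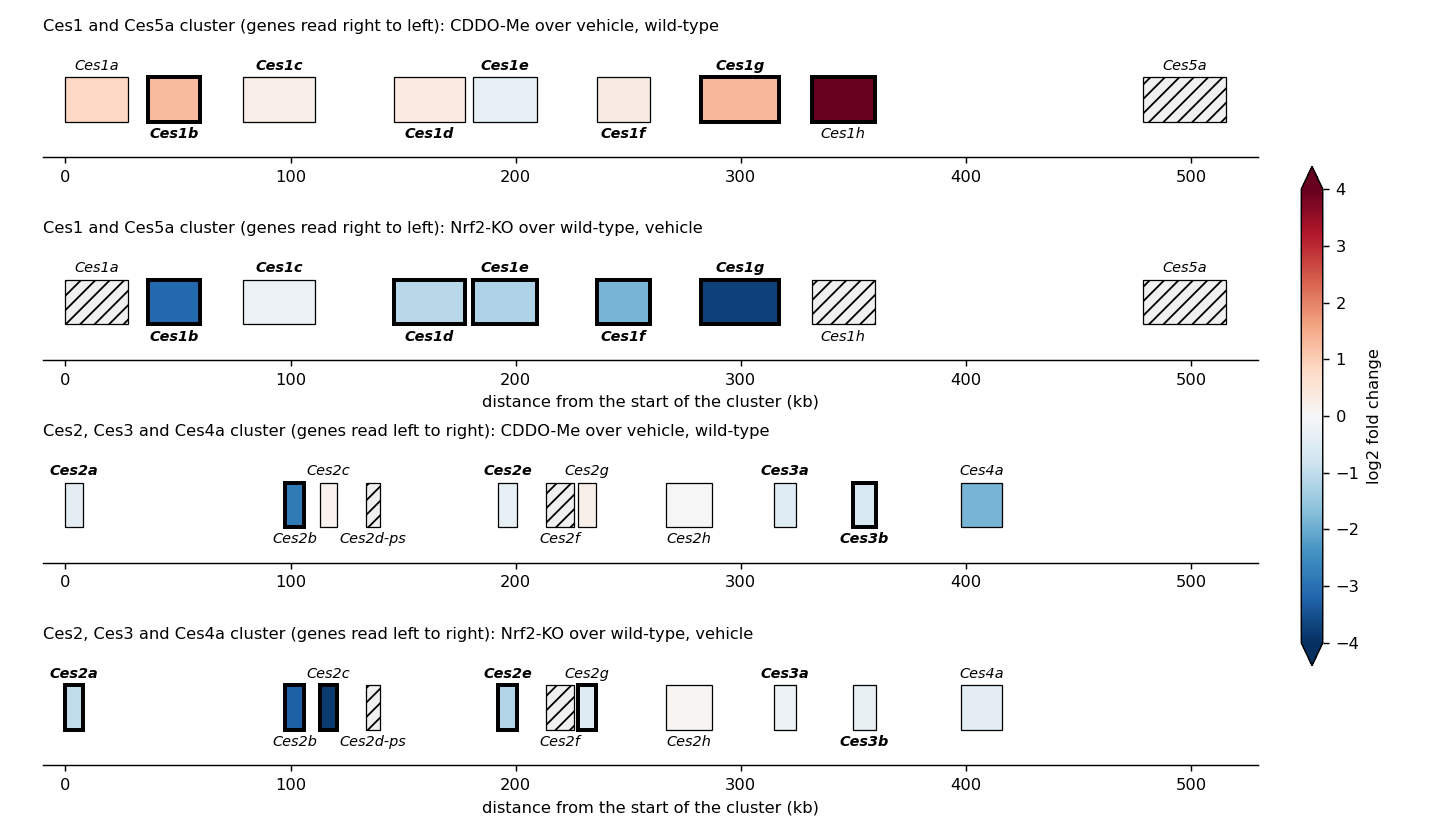
Map of the 2 carboxylesterase gene clusters, drawn to scale as distance in kb from the first gene, with each gene coloured by its log2 fold change (upper strip of each pair, CDDO-Me over vehicle in wild-type mice; lower strip, Nrf2-KO over wild-type mice after vehicle). Bold names are the 10 genes described, thick outlines passed the test, hatched genes had too few counts and the colour scale ends at 4 in either direction; Ces1b and Ces1g are coloured in opposite directions in the 2 strips, while Ces1c, next to Ces1b, is pale in both.

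Upstream of their starts, Ces1b and Ces1c share exact runs that add up to 115 bases, 2 of them overlapping in Ces1b, and yet had different values. Ces1g, the other of the 10 genes that rose with CDDO-Me in wild-type mice, shares no such run with Ces1b. The upstream sequences of these 3 genes of the first cluster are printed for that reason. They come from RefSeq (GRCm38.p6), run 5′ to 3′ on the minus strand and stop before the first transcribed base given by either RefSeq or GENCODE: chr8:93080018-93080267 for Ces1b, chr8:93131284-93131533 for Ces1c and chr8:93337309-93337459 for Ces1g, a shorter window because 99 bases lie inside the longer transcript. Capitals mark the exact runs of at least 15 bases that Ces1b and Ces1c have in common.
Ces1b: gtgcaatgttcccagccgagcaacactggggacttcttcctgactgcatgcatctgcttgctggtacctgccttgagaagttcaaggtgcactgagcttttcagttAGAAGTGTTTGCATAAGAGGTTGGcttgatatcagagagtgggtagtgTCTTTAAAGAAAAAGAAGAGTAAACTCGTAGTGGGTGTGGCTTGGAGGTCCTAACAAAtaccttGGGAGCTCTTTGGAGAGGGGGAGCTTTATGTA
Ces1c: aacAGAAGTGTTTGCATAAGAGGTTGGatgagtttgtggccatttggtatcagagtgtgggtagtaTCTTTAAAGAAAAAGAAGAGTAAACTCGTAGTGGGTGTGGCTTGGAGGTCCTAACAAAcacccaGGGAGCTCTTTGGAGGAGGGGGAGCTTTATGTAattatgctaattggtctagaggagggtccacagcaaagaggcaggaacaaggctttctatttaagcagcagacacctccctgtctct
Ces1g: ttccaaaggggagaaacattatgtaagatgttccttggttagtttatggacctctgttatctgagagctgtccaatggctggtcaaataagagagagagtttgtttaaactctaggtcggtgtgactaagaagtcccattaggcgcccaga
The longest shared run has 58 bases and begins 96 bases before the Ces1b start and 184 bases before the Ces1c start, and the other runs have 24, 18 and 15 bases. The Ces1b start used here therefore falls inside the part of the sequence that still lies upstream in Ces1c. RefSeq also gives a second Ces1b start, 77 bases further downstream. Counted from that start, the runs would lie nearer to their place in Ces1c. Among the 7 of the 10 genes with an upstream sequence in the table, Ces2a and Ces2e shared 1 run of 17 bases. The letters TGACNNNGC, the core of the antioxidant response element, occurred on either strand in the 250 bases before 10.2% of all 32851 starts in the table, and in none of the 7. The looser TGANNNNGC, which includes it, occurred before 35.2% of all starts and in 2 of the 7, as TGATCCTGC on the minus strand of the window from 12 to 4 bases before the RefSeq start of Ces1g, inside the longer GENCODE transcript, and as TGATAAGGC from 96 to 88 bases before that of Ces2a. A match is a run of letters and not a binding site, and its absence says nothing about more distant sequence.

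The labels were checked before the comparisons. Nfe2l2 mRNA averaged 66.1 ± 4.15 CPM (the count scaled to the library total, SD, n = 5) in vehicle-treated wild-type livers and 35.2 ± 4.54 CPM in Nrf2-KO livers, with no overlap, and no Nrf2-KO library of either treatment lay above 39.8 CPM. Reads of the disrupted gene were thus still counted, and a count per gene does not show which part of it they cover. Nqo1, the standard NRF2 target, rose from 7.20 ± 2.38 to 64.4 ± 25.0 CPM with CDDO-Me in wild-type livers, read 6.30 to 7.34 CPM after vehicle and 5.56 to 8.11 CPM after CDDO-Me in C151S livers, and 1.31 to 2.72 and 1.88 to 3.41 CPM in Nrf2-KO livers. Counts per gene cannot show the C151S base change. Of 7 hepatocyte markers, none passed the test in any treatment comparison, and Alb was the most abundant in every group.

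The mutant libraries fell into 2 sets by the clock gene Arntl. It read between 2.52 and 4.79 log2 CPM in 19 libraries and between -1.15 and 0.90 in the other 11. All 10 wild-type libraries were on the high side, whereas 2 of 5 vehicle-treated and 3 of 5 CDDO-Me-treated C151S mice, and 3 of 5 Nrf2-KO mice of each treatment, were on the low side. The labels give no hour or day of sampling, so genotype and this difference cannot be fully told apart, and fits with the Arntl side as a covariate are given wherever they changed a call. Beyond this, C151S mouse 1 and Nrf2-KO mouse 2, both treated with CDDO-Me, had the lowest value of their group for 5 and 8 of the 10 genes. Vehicle-treated Nrf2-KO mouse 4 also did for 5. Results that rest on the CDDO-Me groups of the mutants were also computed without the first 2 of these libraries, chosen after the values were seen.

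Levels of the 10 mRNAs, compared per kb of exon, spanned a wide range in vehicle-treated wild-type livers. Ces1c, whose product is secreted and forms the main carboxylesterase of mouse plasma, was highest at 1082 ± 79.6 CPM per kb. Ces3a, first described as a male-predominant liver esterase, followed at 719 ± 62.8 CPM per kb. Ces1d, a triacylglycerol hydrolase of liver and fat, read 390 ± 79.6 and Ces2a 277 ± 35.6 CPM per kb, and the ranges of these neighbours overlapped. Ces1f read 201 ± 22.8 and Ces3b 189 ± 31.5 CPM per kb, also overlapping. Ces1g (114 ± 24.9) overlapped Ces1e (102 ± 7.05), the protein that anchors beta-glucuronidase in the endoplasmic reticulum. Ces2e (79.1 ± 15.6) overlapped Ces1b, the lowest of the 10 at 52.1 ± 3.88 CPM per kb. By group means, Ces1c was first and Ces3a second in all 6 groups. Ces3a overlapped Ces1d in CDDO-Me-treated wild-type and both C151S groups, and Ces1c in CDDO-Me-treated Nrf2-KO livers. The place of Ces1g moved most, from the seventh after vehicle to the fourth after CDDO-Me in wild-type livers, where it overlapped Ces1f. It was last in CDDO-Me-treated C151S and Nrf2-KO livers, but overlapped Ces2e (37.8 and 38.2 CPM per kb) and Ces1b (4.89 and 5.40) there, respectively.

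The summed length-scaled level of the 10 genes was 3205 ± 163 CPM per kb in vehicle-treated and 3482 ± 370 (SD, n = 5) in CDDO-Me-treated wild-type livers, 2670 ± 237 and 2574 ± 574 in C151S livers, and 2112 ± 258 and 1674 ± 397 in Nrf2-KO livers. The Nrf2-KO range after vehicle (1764 to 2355) lay below the wild-type range (3054 to 3451). Within the sum, Ces1g took 3.56 ± 0.706% in vehicle-treated and 8.30 ± 0.540% in CDDO-Me-treated wild-type livers, but 0.401 ± 0.0821% and 0.289 ± 0.0417% in Nrf2-KO livers. Ces1c took 33.8 ± 3.37% of the sum in vehicle-treated wild-type livers and 43.4 ± 7.03% in Nrf2-KO livers. In bulk liver, fewer cells that express a gene and less mRNA per cell cannot be told apart.

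**Figure D2:**
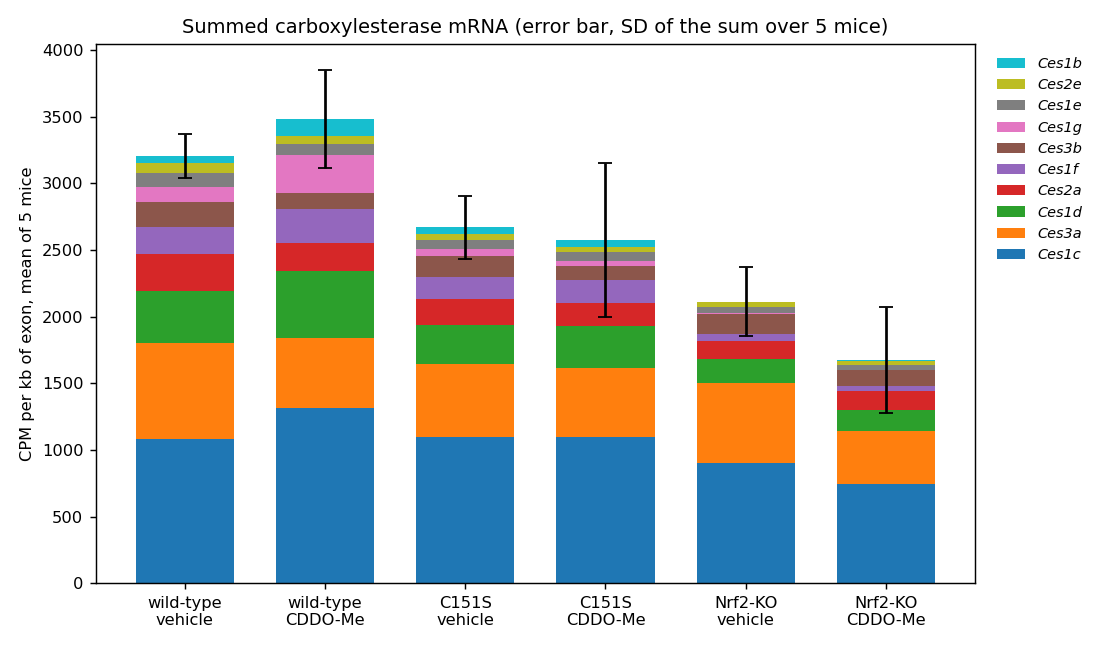
Stacked bars of the mean level of each of the 10 genes in CPM per kb of exon (5 mice per group), with the SD of the sum as the error bar. The sum stood at 3205 in vehicle-treated wild-type livers and at 1674 in CDDO-Me-treated Nrf2-KO livers, and Ces1c and Ces3a made up the larger part of every bar.

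In wild-type mice, CDDO-Me raised Ces1b and Ces1g and lowered Ces3b. These were 3 of the 10 genes, beside 2.75% of all 13697 genes tested, 1.66% higher and 1.1% lower (false discovery rate, FDR, under 0.05 and a log2 fold change of at least 0.5, edgeR quasi-likelihood F-test). The median log2 fold change of the 10 genes was -0.03 and that of all genes -0.01, so the family as a whole had no common direction. Ces1b read 104, 112, 93.3, 106 and 96.3 CPM in the 5 vehicle-treated mice and 250, 214, 230.1, 246 and 291 CPM in the 5 CDDO-Me-treated mice. Every treated mouse lay above every control, as for 2 of the 10 genes and 3.38% of genes tested, and the fold change was 2.39 (log2 1.26 ± 0.09 SE, adjusted p = 6.18e-06, edgeR).

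Ces1g, a lipid-handling esterase of the endoplasmic reticulum, read 331, 195, 237, 331 and 273 CPM after vehicle and 590.4, 606, 821, 709 and 727 CPM after CDDO-Me. The groups were again fully apart, with a 2.52-fold rise (log2 1.33 ± 0.15, adjusted p = 0.000242, edgeR). Ces3b read 454, 438, 603, 399 and 528 CPM after vehicle and 218, 296, 337, 312 and 367 CPM after CDDO-Me. Every treated value lay below every control value, as for 3 of the 10 genes and 2.12% of genes tested, and Ces3b fell by 0.67 ± 0.14 on the log2 scale (adjusted p = 0.0183, edgeR). The Ces3b call was lost without vehicle-treated mouse 3 (-0.58, adjusted p = 0.0505) or mouse 5 (-0.64, adjusted p = 0.0524) and in 1 fit of all 30 libraries (-0.66, adjusted p = 0.246).

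Its neighbour and near copy Ces3a was lower in every treated mouse as well, at 1373 ± 163 CPM against 1888 ± 165 CPM. Its log2 fold change of -0.47 ± 0.10 (adjusted p = 0.0158, edgeR) passed the FDR but not the size threshold. Ces2a stood likewise at -0.41 ± 0.10 (adjusted p = 0.0449, edgeR). Ces3a passed both thresholds without vehicle-treated mouse 2 (-0.5, adjusted p = 0.0120, edgeR) or without CDDO-Me-treated mouse 3 (-0.53, adjusted p = 0.0133, edgeR). The other 5 genes did not pass at either threshold. Ces1c read 3060.5 ± 373 against 2513 ± 185 CPM (log2 0.28 ± 0.10), Ces1d 0.35 ± 0.16, Ces1f 0.32 ± 0.09, Ces1e -0.34 ± 0.10 and Ces2e -0.34 ± 0.16 on the log2 scale, with adjusted p between 0.0660 and 0.313 (edgeR). Thus Ces1b and Ces1c, with nearly the same coding sequence and shared upstream runs, had fold changes of 2.39 and 1.21.

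**Figure D3:**
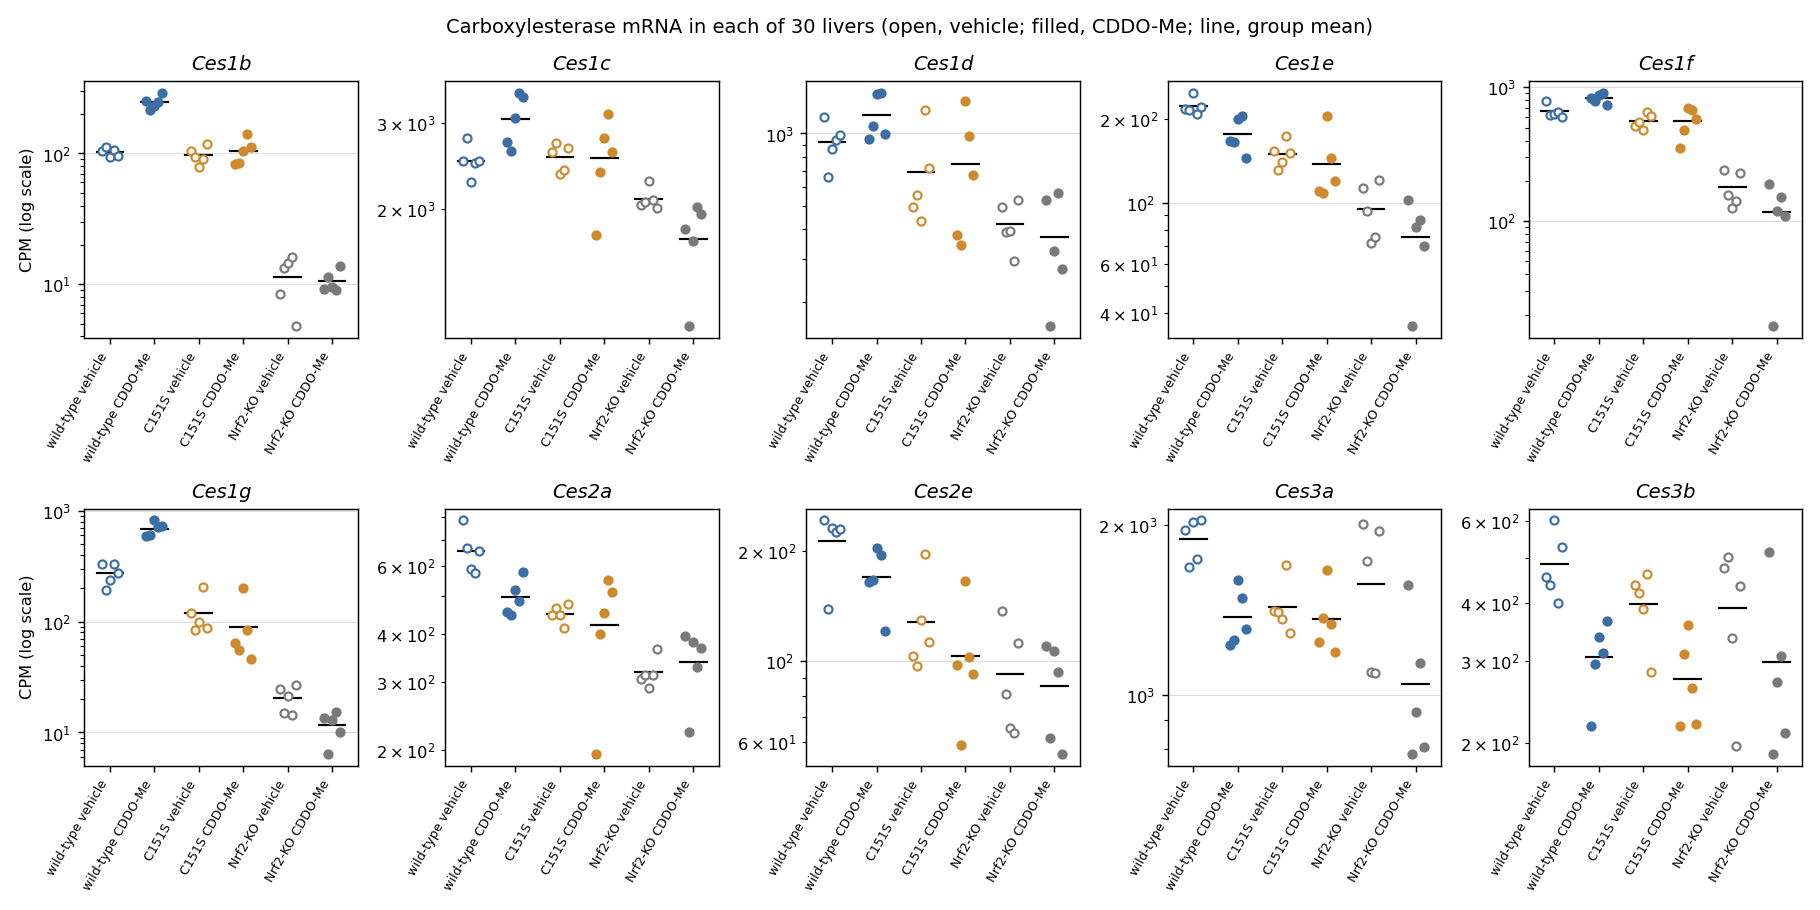
Level of each of the 10 mRNAs in CPM (log scale) in each of 30 livers, with open points for vehicle, filled points for CDDO-Me and a line at the mean of 5 mice. Ces1b and Ces1g are higher in every CDDO-Me-treated wild-type mouse than in every control, and lie far below wild-type in both Nrf2-KO groups.

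In C151S mice none of the 10 genes passed the test after CDDO-Me, beside 0.092% of 14128 genes tested. Ces1b read 104, 93.8, 78.7, 90.1 and 118 CPM in the controls and 83.5, 84.2, 105, 142 and 111 CPM in the treated mice, a log2 fold change of 0.11 ± 0.16 (adjusted p = 0.754, edgeR). Ces1g read 119, 84.0, 98.5, 207 and 87.3 CPM in the controls and 64.3, 55.0, 202, 83.6 and 46.2 CPM in the treated mice, where 4 of 5 lay under the lowest control and mouse 3 stood apart. Its log2 fold change was -0.41 ± 0.40 (adjusted p = 0.642, edgeR). Ces3b, at 399 ± 69.5 and 274 ± 60.7 CPM, had a log2 fold change of -0.55 ± 0.17 (adjusted p = 0.347, edgeR), close in size to that in wild-type mice.

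In Nrf2-KO mice none of the 10 genes passed after CDDO-Me either, and no gene of 14474 did (0%), with 1136 at an unadjusted p under 0.05 and 50 called by DESeq2, none of them among the 10. Ces1b read 8.48, 13.3, 14.5, 16.3 and 4.79 CPM in the controls and 9.22, 11.3, 9.54, 9.11 and 13.9 CPM in the treated mice. The groups overlapped, with a log2 fold change of -0.13 ± 0.28 (adjusted p = 0.930, edgeR). Ces1g read 24.9, 15.02, 21.2, 14.3 and 26.6 CPM in the controls and 13.6, 6.41, 13.1, 15.3 and 10.03 CPM in the treated mice, with a log2 fold change of -0.81 ± 0.24 (adjusted p = 0.547, edgeR). The median of the 10 genes was -0.31 against -0.01 for all genes.

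Whether responses differed between genotypes was tested as an interaction in 1 fit of all 30 libraries. Between wild-type and Nrf2-KO mice the response differed for Ces1b (log2 1.38 ± 0.29, adjusted p = 0.0255, edgeR) and Ces1g (2.14 ± 0.45, adjusted p = 0.0234, edgeR), 2 of the 10 genes beside 0.266% of 15010 tested. The Ces1g call was lost only without vehicle-treated wild-type mouse 2 (2.04, adjusted p = 0.0505) among the 20 fits that left out 1 mouse. For Ces1b the estimate stayed between 1.22 and 1.58 in those 20 fits, but 12 of them lost the call, with adjusted p between 0.0506 and 0.0716. Between wild-type and C151S mice no gene of the 10 passed, beside 0.48% of all genes, although the estimates for Ces1b (1.15 ± 0.29, 95% interval 0.59 to 1.71, adjusted p = 0.0753) and Ces1g (1.74 ± 0.44, 0.88 to 2.60, adjusted p = 0.0826) were nearly as large. DESeq2 called both (adjusted p = 0.0196 and 0.0133). Without CDDO-Me-treated C151S mouse 3, Ces1g stood at 2.26 (adjusted p = 0.000603, edgeR), and with the Arntl side as a covariate at 1.88 (adjusted p = 0.0182). Without CDDO-Me-treated C151S mouse 4, Ces1b stood at 1.28 (adjusted p = 0.0384). For Ces3b the difference between wild-type and C151S responses was -0.12, with an interval from -0.77 to 0.53. Between C151S and Nrf2-KO mice none of the 10 responses passed, beside 0.0133% of all genes. These 3 differences share libraries and are not independent of each other.

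**Figure D4:**
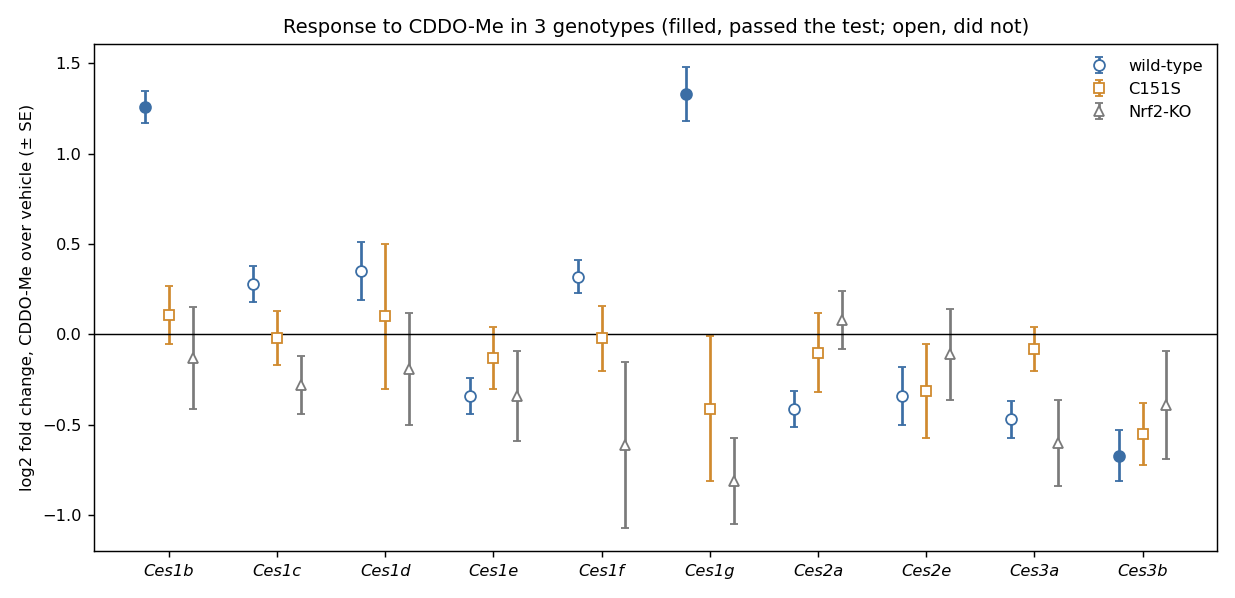
Log2 fold change with CDDO-Me over vehicle (± SE, 5 mice against 5) for the 10 genes in wild-type (circles), C151S (squares) and Nrf2-KO mice (triangles), filled where the test was passed. Ces1b lies at 1.26 in wild-type, 0.11 in C151S and -0.13 in Nrf2-KO mice and Ces1g at 1.33, -0.41 and -0.81, of which the differences between wild-type and C151S mice did not pass the test, and Ces3b is below 0 in all 3 genotypes.

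After vehicle alone, Nrf2-KO livers had less carboxylesterase mRNA than wild-type livers. Of the 10 genes 7 were lower and none higher, beside 4.13% of all 14030 genes called lower and 10.4% called in either direction, and the median log2 difference of the 10 was -1.16 against 0.01 for all genes. All 7 were also lower in every Nrf2-KO mouse than in any wild-type mouse, which held for 7.19% of genes tested. With upper-quartile scaling the same number of the 10 passed, although the split of all calls moved from 883 higher and 579 lower to 1307 higher and 426 lower. Ces1g was 13.3-fold lower (log2 -3.73 ± 0.22, adjusted p = 3.01e-06, edgeR), at 20.4 ± 5.59 against 273 ± 59.5 CPM. Ces1b was 8.77-fold lower (-3.13 ± 0.27, adjusted p = 8.38e-05, edgeR), at 11.5 ± 4.72 against 102 ± 7.63 CPM.

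Ces1f, linked to hepatic triglyceride handling, read 241, 157, 126, 142 and 227 CPM in Nrf2-KO and 788, 626, 628, 657 and 599 CPM in wild-type mice. The groups were far apart, and the log2 difference was -1.87 ± 0.17 (adjusted p = 0.000133, edgeR). Ces1e (-1.22 ± 0.14), Ces2e (-1.20 ± 0.22), Ces1d (-1.12 ± 0.17) and Ces2a (-1.03 ± 0.11) were 2.32-fold, 2.31-fold, 2.18-fold and 2.04-fold lower. Ces1c, the most abundant of the 10, was at -0.24 ± 0.09 (adjusted p = 0.0765, edgeR), and Ces3a (-0.25 ± 0.17) and Ces3b (-0.30 ± 0.21) did not pass. All 7 calls held in every alternative fit and without each mouse in turn.

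C151S livers after vehicle also had less of 4 of the 10 mRNAs than wild-type livers, with none higher, beside 2.25% of 13946 genes called lower and 4.84% called in either direction. The split of all calls was 361 higher and 314 lower, or 460 and 252 with upper-quartile scaling. Ces1g was 2.28-fold lower (-1.19 ± 0.24, adjusted p = 0.0133, edgeR), with 1 C151S mouse (207 CPM) above the lowest wild-type mouse (195 CPM). Ces1e (-0.56 ± 0.08, adjusted p = 0.00322, edgeR) and Ces2a (-0.53 ± 0.10, adjusted p = 0.00893, edgeR) were lower in every C151S mouse, which held for 2 of the 10 genes and 5.65% of genes tested. Ces2e stood at -0.73 ± 0.20 (adjusted p = 0.0413, edgeR). Ces1b (-0.07 ± 0.10) and Ces1f (-0.22 ± 0.10), both far lower in Nrf2-KO livers, did not pass.

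The Ces2e call was lost in 8 of the 10 fits without 1 mouse (adjusted p between 0.0678 and 0.107). The Ces2a call was lost without wild-type mouse 1 (-0.45) or C151S mouse 4 (-0.49) and with upper-quartile scaling (-0.47), each time by falling under the size threshold. In 1 fit of all 30 libraries Ces1g alone kept its call. Ces1d, at -0.41 ± 0.26, passed with the Arntl side as a covariate (-0.87, adjusted p = 0.0114) and without C151S mouse 4 (-0.72, adjusted p = 0.0202).

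**Figure D5:**
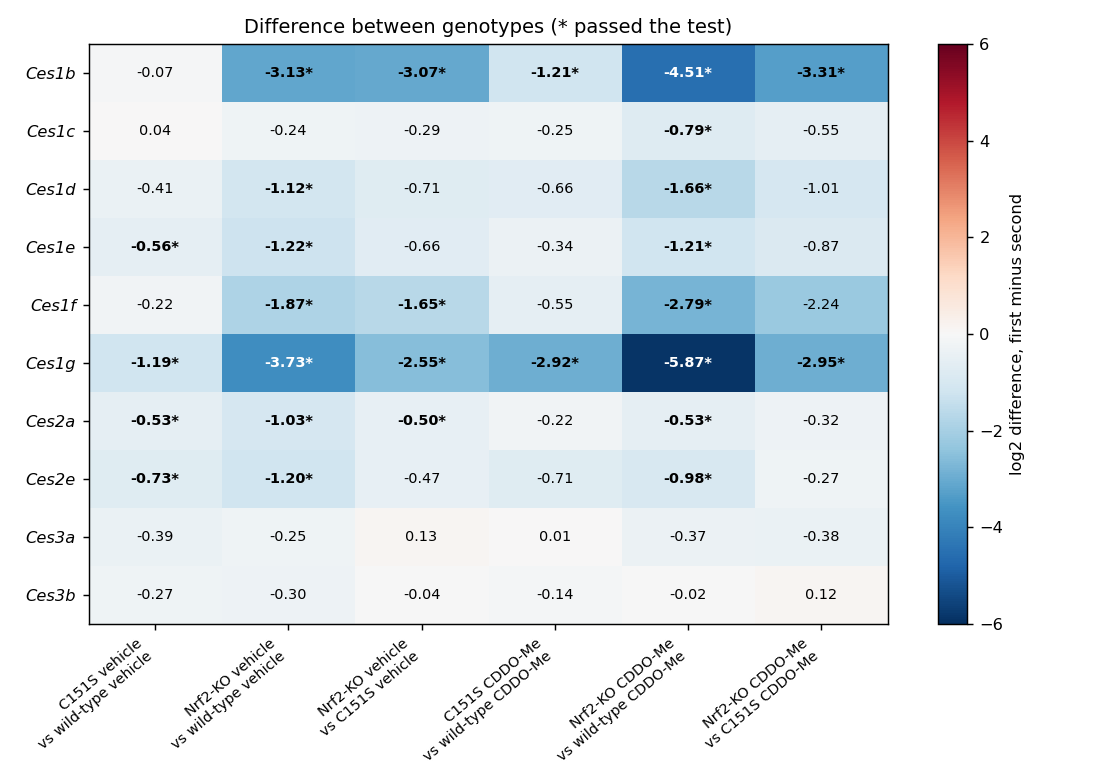
Log2 difference between genotypes for the 10 genes (rows) in 6 comparisons at matched treatment (columns, 5 mice against 5), printed in each cell with an asterisk where the test was passed. Blue runs through the Ces1 and Ces2 rows in the Nrf2-KO columns, down to -5.87 for Ces1g after CDDO-Me, and the Ces3a and Ces3b rows hold no asterisk.

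After CDDO-Me, 8 of the 10 genes were lower in Nrf2-KO than in wild-type livers, beside 4.85% of 13935 genes called lower and 9.44% called in either direction, and the median log2 difference of the 10 was -1.09. Ces1g was 58.3-fold lower (log2 -5.87 ± 0.25, adjusted p = 3.05e-08, edgeR) and Ces1b 22.9-fold lower (-4.51 ± 0.16, adjusted p = 9.37e-09, edgeR). Ces1f stood at -2.79 ± 0.46, Ces1d at -1.66 ± 0.31, Ces1e at -1.21 ± 0.23, Ces2e at -0.98 ± 0.21 and Ces1c at -0.79 ± 0.17, and all 8 called genes were lower in every Nrf2-KO mouse, which held for 6.67% of genes tested. Ces1f in the treated Nrf2-KO mice read 190.2, 16.4, 120.0, 152 and 109.7 CPM, mouse 2 being far under the rest. Ces2a (-0.53 ± 0.15, adjusted p = 0.0428, edgeR) lost its call in 8 of the 10 fits without 1 mouse, without Nrf2-KO mouse 2 by falling to -0.41 (adjusted p = 0.0249). The other 7 kept theirs without that mouse. Ces3a passed only with the Arntl side as a covariate (-0.76, adjusted p = 0.0382) or without Nrf2-KO mouse 1 (-0.56, adjusted p = 0.0302).

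C151S and wild-type livers after CDDO-Me differed for 2 of the 10 genes, beside 2.8% of 13844 genes called lower and 5.0% called in either direction. Ces1g was 7.57-fold lower in C151S livers (-2.92 ± 0.37, adjusted p = 0.00101, edgeR) and Ces1b 2.31-fold lower (-1.21 ± 0.15, adjusted p = 0.000772, edgeR), with no overlap for either. Ces1f, the last of 3 genes lower in every C151S mouse (5.0% of genes tested), did not pass (-0.55 ± 0.17, adjusted p = 0.0721, edgeR), but did with DESeq2 (-0.56, adjusted p = 0.0213) and with the Arntl side as a covariate (-0.96, adjusted p = 0.00903). Ces1d, at -0.66 ± 0.34 (adjusted p = 0.256, edgeR), moved most with that covariate, to -1.69 (adjusted p = 0.0106). Ces2e, at -0.71 ± 0.23 (adjusted p = 0.0858, edgeR), passed with DESeq2 (-0.71, adjusted p = 0.0319). Without C151S mouse 3, Ces1e (-0.54, adjusted p = 0.0423) and Ces2e (-0.95, adjusted p = 0.0179) also passed. Without C151S mouse 1, 2 of the 10 passed as well.

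The mutants were compared with each other to separate loss of the sensor cysteine from loss of NRF2. After vehicle 4 of the 10 genes were lower in Nrf2-KO than in C151S livers, beside 0.307% of 14323 genes called lower and 0.349% called in either direction. Ces1b was 8.41-fold lower (-3.07 ± 0.29, adjusted p = 0.000698, edgeR), Ces1g 5.84-fold (-2.55 ± 0.27, adjusted p = 0.00145, edgeR) and Ces1f 3.15-fold (-1.65 ± 0.18, adjusted p = 0.00147, edgeR). The replicate block ended the calls of Ces1b (-3.17, adjusted p = 0.0575, edgeR) and Ces1g (-2.49, adjusted p = 0.0584, edgeR) at nearly the same size. Ces2a, at -0.50 ± 0.09 (adjusted p = 0.0394, edgeR), lost its call in 13 of 16 alternatives, among them 8 of the 10 fits without 1 mouse, upper-quartile scaling (-0.46), no filter (adjusted p = 0.0597) and the Arntl side as a covariate, where it fell under the size threshold (-0.48, adjusted p = 0.0253). Ces1c and Ces1e did not pass, though they were among the 6 genes lower in every Nrf2-KO mouse (1.54% of genes tested). DESeq2 called 5 of the 10, with Ces1e gained (-0.67, adjusted p = 0.00628). After CDDO-Me 2 of the 10 passed, beside 0.127% of 14186 genes called lower and 0.162% called in either direction: Ces1b (-3.31 ± 0.18, adjusted p = 9.13e-06, edgeR) and Ces1g (-2.95 ± 0.41, adjusted p = 0.0166, edgeR). The Ces1g call was lost without Nrf2-KO mouse 1, 3 or 5 (adjusted p between 0.0563 and 0.0604). Ces1f, 1 of 4 genes lower in every Nrf2-KO mouse (0.895% of genes tested) at -2.24 ± 0.48 (adjusted p = 0.164, edgeR), passed without Nrf2-KO mouse 2 (-1.96, adjusted p = 0.0115). In all it passed in 5 of 17 alternatives. With every mouse kept these were DESeq2 (adjusted p = 0.0001265), no filter (adjusted p = 0.0342, edgeR) and 1 fit of all 30 libraries (adjusted p = 0.000223, edgeR). For Ces1b, then, C151S livers lay with wild-type livers after vehicle, at 96.9 ± 14.7 CPM, and 8.41-fold above Nrf2-KO livers. For Ces1g, at 119 ± 51.1 CPM, they lay between the others.

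Levels within the mutants were also compared between the 2 sides of Arntl. Over both treatments, Ces1d read 343 to 557 CPM in the 5 C151S livers on the high side and 672 to 1361 CPM in the 5 on the low side, with no overlap. Ces1f likewise read 355 to 548 CPM on the high side and 578 to 696 CPM on the low side. In Nrf2-KO livers the 2 sides overlapped for Ces1d (159 to 530 and 325 to 566 CPM) and Ces1f (16.4 to 227 and 120.0 to 241 CPM). Ces1b did not follow this pattern, at 78.7 to 104 and 90.1 to 142 CPM in C151S livers. The 2 sides of C151S livers also overlapped for Ces1c, Ces1e, Ces1g, Ces2a, Ces2e, Ces3a and Ces3b. These sets were defined from the data and were not tested. The share of all genes without overlap between the sides was not computed. The values therefore do not show whether the gaps of Ces1d and Ces1f are unusual.

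The 10 other carboxylesterase genes of the mouse were present at much lower levels, with a summed level of 31.0 ± 7.15 CPM per kb in vehicle-treated wild-type livers. Ces2g and Ces2c, an inducible acylcarnitine hydrolase, made up nearly all of it. Ces2f and Ces5a, an enzyme of kidney and epididymis, had at most 1 count in any library, and they and Ces2d-ps never passed the filter. Ces1h, the neighbour of Ces1g, had 1 count over the 5 vehicle-treated wild-type mice and 83 over the 5 CDDO-Me-treated ones, 13 to 19 in each. The ratio was 82.7, with an exact 95% counting interval from 14.4 to 3304. It had 1 count over the 5 CDDO-Me-treated C151S mice and none over the 5 CDDO-Me-treated Nrf2-KO mice, and the exact 95% lower limit of the ratio of treated wild-type to treated Nrf2-KO mice was 26.8. Both limits cover counting error only, treat reads as independent molecules and leave out the spread between mice. By edgeR, Ces1h was called higher with CDDO-Me in wild-type mice, and lower in both treated mutants than in treated wild-type mice. In these comparisons Ces1h passed the filter on low counts only through the treated wild-type mice, where it is high. The calls therefore add nothing to the counts themselves. The Ces1h response of wild-type mice did not pass the test of its difference from that of C151S (adjusted p = 0.510, edgeR) or Nrf2-KO mice (adjusted p = 0.360, edgeR).

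Ces2c was lower in mutants under both treatments. It read 35.9 ± 12.5 CPM in vehicle-treated wild-type, 7.24 ± 5.07 in C151S and 2.46 ± 1.33 in Nrf2-KO livers, and its log2 differences from wild-type of -2.30 ± 0.40 and -3.82 ± 0.40 passed (adjusted p = 0.00682 and 0.000294, edgeR). CDDO-Me did not move it past the test in wild-type mice (40.8 ± 8.97 CPM). Its transcript shares 36.1% of its 50-base stretches with other genes, mainly the pseudogene Ces2d-ps. Ces2b fell by 2.83 ± 0.58 on the log2 scale with CDDO-Me in wild-type mice (adjusted p = 0.0145, edgeR) from a low level of 1.32 ± 0.894 CPM. After vehicle it was also lower than in wild-type livers in C151S (-2.32 ± 0.57, adjusted p = 0.0301, edgeR) and Nrf2-KO livers (-3.28 ± 0.59, adjusted p = 0.00481, edgeR). Ces2g was lower in Nrf2-KO livers after vehicle (-0.53 ± 0.11) and CDDO-Me (-0.71 ± 0.11), and in C151S livers after CDDO-Me (-0.79 ± 0.14). Ces1a (-3.66 ± 0.53) was lower and Ces4a (1.78 ± 0.43) higher in CDDO-Me-treated Nrf2-KO than wild-type livers, both under 1.5 CPM on average. Ces1a, at no more than 3 counts in every treated Nrf2-KO library, passed the filter there only through the wild-type mice. Ces2h passed nowhere.

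Of 23 other esterases and lipid hydrolases of the liver, 2 passed in wild-type mice after CDDO-Me, beside 2.75% of all genes, and none in either mutant. After vehicle 1 differed between Nrf2-KO and wild-type livers (Pnpla2, the adipose triglyceride lipase, higher), and after CDDO-Me 2 were lower (Esd, -1.04 ± 0.09, and the paraoxonase gene Pon1, -0.84 ± 0.19), beside 10.4% and 9.44% of all genes. Between C151S and wild-type livers none passed after vehicle, beside 4.84% of all genes, and Esd was the 1 that passed after CDDO-Me, where it was lower (-0.86 ± 0.09), beside 5.0%. Esd, which encodes S-formylglutathione hydrolase, rose 1.74-fold in wild-type mice (log2 0.80 ± 0.06, adjusted p = 9.84e-06, edgeR), with 209.9 to 226 CPM after vehicle and 356 to 405 CPM after CDDO-Me, and its response differed from that in C151S (0.71 ± 0.11, adjusted p = 0.000971, edgeR) and Nrf2-KO mice (0.69 ± 0.11, adjusted p = 0.0023, edgeR). Pnpla3, a lipid-droplet hydrolase, fell by 2.02 ± 0.43 from 1.22 ± 0.764 CPM (adjusted p = 0.0198, edgeR). Of 12 genes of triglyceride and very-low-density lipoprotein handling, 1 passed in wild-type mice, the fatty acid binding protein gene Fabp1 (-0.84 ± 0.14, adjusted p = 0.00559, edgeR), beside the same 2.75% of all genes, and none in either mutant. Between genotypes, Gpam, which encodes a glycerol-3-phosphate acyltransferase, was lower than in wild-type livers in C151S (-0.67 ± 0.15) and Nrf2-KO livers (-0.70 ± 0.15) after vehicle and in C151S livers after CDDO-Me (-0.80 ± 0.16). The apolipoprotein gene Apob was lower in Nrf2-KO livers after vehicle (-0.52 ± 0.15). After CDDO-Me, the lipid droplet gene Plin5 was higher in C151S (0.63 ± 0.15) and the apolipoprotein gene Apoa4 in Nrf2-KO livers (1.86 ± 0.49). Against wild-type livers after vehicle, 1 (C151S) and 2 (Nrf2-KO) of the 12 were called, beside 4.84% and 10.4% of all genes. After CDDO-Me 2 and 1 were, beside 5.0% and 9.44%. None of the 12 was called between the mutants, beside 0.349% of all genes after vehicle and 0.162% after CDDO-Me.

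Of 12 NRF2 reference genes, 11 rose with CDDO-Me in wild-type mice, beside 1.66% of all genes called higher, and none passed in C151S or Nrf2-KO mice, where 0.092% and 0% of all genes did. After vehicle 8 were lower in Nrf2-KO than in wild-type livers, beside 4.13% of all genes called lower. The list holds genes known as NRF2 targets and serves only as a yardstick: its median log2 fold change in wild-type mice was 1.45, near the values of Ces1b and Ces1g. Among 10 transcription factors known for carboxylesterase genes, Nr1i3, the constitutive androstane receptor, was the 1 that passed in wild-type mice, beside 2.75% of all genes. It read 95.9 to 213 CPM after vehicle and 322 to 465 CPM after CDDO-Me, a 2.21-fold rise (log2 1.15 ± 0.19, adjusted p = 0.00398, edgeR), and it was lower in Nrf2-KO livers after vehicle (-1.68 ± 0.32, adjusted p = 0.00607, edgeR) and CDDO-Me (-2.55 ± 0.25, adjusted p = 6.04e-05, edgeR). With Nfe2l2 it made up the 2 of the 10 factors called lower in Nrf2-KO livers, beside 4.13% of all genes after vehicle and 4.85% after CDDO-Me. None of the 10 was called between C151S and wild-type livers, beside 4.84% and 5.0% of all genes. No response of the 10 differed between wild-type mice and C151S or Nrf2-KO mice, beside 0.48% and 0.266%. The part of Nr1i3 in the carboxylesterase values was not tested.

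Markers of other liver cells also moved with the Nrf2-KO genotype. Of 5 sinusoidal endothelial markers, 3 were higher in Nrf2-KO than in wild-type livers after vehicle (Stab2 0.78 ± 0.16, Pecam1 0.69 ± 0.13, Lyve1 1.59 ± 0.40 on the log2 scale), and their summed level was 182 to 285 CPM against 144 to 171 CPM, with Stab2 the most abundant. The marker counts stand beside 10.4% of all genes called in either direction between these livers after vehicle and 9.44% after CDDO-Me. After CDDO-Me the sums overlapped (135 to 260 and 136 to 168 CPM), and 1 of the 5 passed. Of 5 stellate cell markers 2 were higher after vehicle (Des, Pdgfrb), and no Kupffer cell or cholangiocyte marker passed. After CDDO-Me the Kupffer cell marker Marco was lower in Nrf2-KO (-2.14 ± 0.36) and C151S livers (-1.13 ± 0.28) than in wild-type livers. The 7 hepatocyte markers summed to 116197 to 129065 CPM in vehicle-treated Nrf2-KO and 100713 to 120312 CPM in wild-type livers, and none passed. Pericentral markers summed to 942 to 2557 CPM against 2191 to 2933 CPM, which overlapped, and 1 of 6 was lower (Oat). After CDDO-Me Cyp1a2 was lower (-1.95 ± 0.38). Of 6 periportal markers none passed after vehicle and 3 were higher after CDDO-Me (Ass1 0.87 ± 0.19, Gls2 0.66 ± 0.20, Sds 1.31 ± 0.27), with sums of 7434 to 9452 CPM in Nrf2-KO and 4284 to 8855 CPM in wild-type livers. In C151S livers Sds was higher than in wild-type livers after vehicle (1.06 ± 0.29) and CDDO-Me (1.52 ± 0.34), and Cyp1a2 lower after CDDO-Me (-1.55 ± 0.28). The hepatocyte marker Tat, 1 of 7, was also higher in C151S livers after CDDO-Me. These stand beside 4.84% of all genes called after vehicle and 5.0% after CDDO-Me. In wild-type mice Cyp1a2, 1 of 6 pericentral markers, was called higher with CDDO-Me, beside 2.75% of all genes. Of the pancreatic acinar markers, 4 of 5 were at no more than 3 counts in every Nrf2-KO library, and the fifth, Cela2a, was higher in every Nrf2-KO than wild-type mouse after vehicle (1.19 ± 0.27) and CDDO-Me (1.82 ± 0.38), at 0.843 to 1.39 against 0.283 to 0.703 CPM after vehicle. The part of hepatocyte, endothelial, stellate, Kupffer, acinar and zonal markers in the carboxylesterase differences was not tested.

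Between mice of the same group, some pairs of the 10 genes varied together and others did not. After the group means were removed, the correlation of log2 CPM over the 30 libraries was 0.87 for Ces1e with Ces1f, 0.86 for Ces3a with Ces3b, 0.81 for Ces1d with Ces1e and 0.80 for Ces1d with Ces1g. Ces1c stood at 0.79 with Ces2a but at 0.03 with Ces2e, 0.17 with Ces3a and 0.26 with Ces3b, and Ces2a at 0.12 with Ces2e, 0.24 with Ces1g, 0.26 with Ces3a and 0.29 with Ces3b. Ces1b stood at 0.33 with its near copy Ces1c, -0.26 with Ces1g and -0.58 with Ces3a, although over all libraries, group differences included, it followed Ces1g at 0.90. These values share libraries, and reads with several matches were left out of the counts they rest on.

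Outside the family, the genes most like Ces1b over the 30 libraries, among 14993 compared, were 9130409I23Rik (Pearson r = 0.951), the transporter gene Abcc3 (0.948) and the aldehyde oxidase gene Aox1 (0.928). Those most like Ces1g were the glucuronosyltransferase genes Ugt2b5 (0.976), Ugt2b35 (0.963) and Ugt2b36 (0.959). With group means removed, these 3 stood at 0.72, 0.82 and 0.64 with Ces1g. With Ces1b, 9130409I23Rik then stood at 0.55, Abcc3 at 0.50 and Aox1 at -0.33. Ces3b was most like Selenbp2 (0.878), B630019A10Rik (0.828) and Tprkb (0.806), which stood at 0.81, 0.84 and 0.75 with group means removed. All these genes were picked by r over the same libraries, so the second set of values is not independent of the first.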

How the data were processed

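Livers of 30 mice were sequenced from poly(A) RNA with a stranded kit. Per the study's methods and the submitters' processing notes, the authors checked reads with fastp without removing any, aligned them with STAR 2.7.7 to mm10 with GENCODE M23 genes and deposited raw read counts per gene for the second strand. The 4 summary lines (reads without a match, with several matches, in no gene or in several genes) held 19.4% to 34.1% of reads per library and were left out, leaving 55335 genes and 23667068 to 42073169 counts, which set the precision.

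Groups came from the labels, which give no date of sample isolation, a covariate the authors used. The columns of 5 libraries per group were taken as separate mice. No 2 libraries of a group agreed within sampling noise (chi-square of at least 15.2 per degree of freedom over 60 pairs). CPM used trimmed mean (TMM) factors of all 30 libraries. Each pair of groups was tested with edgeR 4.0.16 (filterByExpr, TMM, quasi-likelihood F-test, Benjamini-Hochberg adjustment over all genes tested). A gene was called at FDR under 0.05 with a log2 fold change of at least 0.5, and a difference of responses, in 1 fit of 30 libraries, at FDR under 0.05. SE is the log2 fold change over the root of F, and 95% intervals are normal intervals from it. Alternatives were DESeq2 1.42.0, upper-quartile scaling, no filter, the replicate block, 1 fit of all libraries, the Arntl side, each mouse left out and, chosen after seeing the data, 2 libraries left out. The fits were tested on simulated data. Levels between genes were compared per kb of exon.

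The genes, lists and tests were chosen with earlier results of these data known. Named were the 10 genes, the other carboxylesterases, Nfe2l2, Keap1, Nqo1 and Arntl, called or abundant genes of each list, and the 3 genes most correlated with each gene called in wild-type mice after CDDO-Me.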

Additional observations from a re-analysis of the deposited data

Results flagged for a closer look

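Of 60 sets of 5 values (10 genes in 6 groups), 5 held a mouse whose gap to the nearest other value was over 0.71 of the range of the group, Dixon's 95% limit for 5 values. Chance alone gives about 1 in 20. Ces1g stood high in vehicle-treated C151S mouse 4, at 207 CPM against 84.0 to 119 in the others, and in CDDO-Me-treated C151S mouse 3, at 202 CPM against 46.2 to 83.6. Both lie on the low side of Arntl, as do 3 other C151S mice without such values. Ces1c read 2283 CPM in vehicle-treated Nrf2-KO mouse 3, against 2009 to 2087. Ces1e read 249 CPM in vehicle-treated wild-type mouse 3, against 209 to 221. Ces2e read 139 CPM in vehicle-treated wild-type mouse 2, against 225 to 242.

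The response to CDDO-Me differed between wild-type and Nrf2-KO mice for Ces1b (log2 difference 1.38, adjusted p = 0.0255, edgeR) and Ces1g (2.14, adjusted p = 0.0234, edgeR), and all 5 treated wild-type mice lay above all 5 controls for both. The Ces1b call was lost in 13 of 26 alternatives and the Ces1g call in 1.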

How the results depend on the processing

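Of 32 called results of the 10 genes, 21 were called in every alternative and 11 were lost in at least 1. Of 88 results not called, 13 passed in at least 1, and no called result changed sign. Without 1 mouse at a time, the number of the 10 genes called was 2 to 4 for CDDO-Me in wild-type mice, 0 in both mutants, 2 to 4 for C151S and 7 for Nrf2-KO against wild-type after vehicle, 3 to 4 for Nrf2-KO against C151S after vehicle, 2 to 4, 7 to 9 and 1 to 3 for the same pairs after CDDO-Me, and, for differences of responses, 0 to 1 (wild-type and C151S), 1 to 2 (wild-type and Nrf2-KO) and 0 (C151S and Nrf2-KO). DESeq2 called 4 of the 10 for C151S against wild-type after CDDO-Me and 2 for wild-type against C151S responses. No filter gave 1 for the latter. The Arntl side as a covariate gave 4 and 1 for these comparisons. One fit of all 30 libraries gave 1 for C151S against wild-type after vehicle and 5 for Nrf2-KO against C151S after CDDO-Me. The causes were not tested.

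The correlation of same-numbered mice was not over 0.1 in all 5 pairs of any comparison (mean -0.185 to 0.176 over 2000 genes), so the numbers were not taken to pair mice. With the replicate block, 1 of the 10 genes was called for Nrf2-KO against C151S after vehicle, with Ces1b (log2 -3.17, adjusted p = 0.0575, edgeR), Ces1g (-2.49, 0.0584) and Ces2a (-0.51, 0.172) lost, beside -3.07, -2.55 and -0.50 as reported. It called 1 for wild-type against Nrf2-KO responses, with Ces1b lost (1.30 beside 1.38, adjusted p = 0.222, edgeR), and 1 for wild-type against C151S responses, with Ces1g gained (adjusted p = 0.0382, edgeR). Ces2e was gained for C151S against wild-type after CDDO-Me (adjusted p = 0.0381, edgeR).

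Counts over all genes moved more. Across alternatives other than leaving out 1 mouse they were 147 to 542 (377 as reported) for wild-type, 2 to 120 (13) for C151S and 0 to 50 (0) for Nrf2-KO mice after CDDO-Me. After vehicle they were 382 to 1904 (675) for C151S and 954 to 1970 (1462) for Nrf2-KO against wild-type, and 9 to 193 (50) between mutants. After CDDO-Me they were 383 to 1212 (692), 1152 to 1846 (1315) and 8 to 131 (23). For differences of responses they were 52 to 111 (72), 23 to 82 (40) and 1 to 3 (2). Without 1 mouse at a time they were 0 to 22 for C151S mice after CDDO-Me, 390 to 1168 for C151S and 949 to 2050 for Nrf2-KO against wild-type after vehicle, 379 to 1303 for C151S against wild-type after CDDO-Me (1303 without C151S mouse 1, the one of the 2 libraries of lowest values in that comparison), 29 to 54 and 11 to 38 between mutants after vehicle and CDDO-Me, and 1 to 3 for C151S against Nrf2-KO responses. Depth limits Ces1h, Ces1a and Ces2b, at few counts per library.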
